A study of Homo sapiens with 4 samples.

Results

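In Jurkat cells transfected with LEF1 siRNA, 23 genes with a bright and reproducible control signal were lower by at least 2-fold on every array pairing. They included SCG2, which encodes the granin secretogranin II, the transcription factor genes HLF, RELB and ETV5, and the phosphatase genes PTPN22, DUSP6 and PLPP6. The genes were chosen by the measured values themselves, and the size and direction of their difference are therefore a description and not a finding. A probe set, the group of probes that reads a transcript, was taken when it had 1 gene symbol, when its lower non-targeting value exceeded its higher LEF1 siRNA value by at least 1 on the log2 scale, when the non-targeting values differed by less than 0.3 and when both were at least 7. DHRS2 and histone genes were to be left out, but 0 of the probe sets that met these conditions belonged to them. Of 7691 probe sets of 5768 genes with bright and stable non-targeting values, 30 had the gap (0.390%), and these fell into the 23 genes, out of 19775 gene symbols on the array. Each gene is represented by its brightest probe set among those that met the conditions, called its entry below.

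Jurkat is a human T-cell acute lymphoblastic leukemia line. The siLEF1 group was transfected with 100 nM of a pool of LEF1 siRNAs, and the siNT group with 100 nM of a pool of non-targeting siRNAs. RNA was taken 24 h after transfection in both groups, with no untransfected cells analysed here. Each group had 2 Affymetrix HG-U133 Plus 2.0 arrays, which the sample labels call biological replicates, and with 1 siRNA pool per group the loss of LEF1 and other effects of that pool cannot be told apart. Signals are log2 values after robust multi-array averaging (RMA), so a difference of 1 is a 2-fold difference, and the number of arrays limits their precision. The signal of a probe set depends on its probes, and levels were not compared between genes. In bulk RNA, fewer cells with a transcript and less of it per cell cannot be told apart.

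LEF1 is a transcription factor that binds DNA through its high mobility group domain and passes on Wnt signals when it is bound by beta-catenin. It can also act without beta-catenin, and in the thymus it takes part in the development of T cells together with the related factor TCF7. Its recognition sequence is shared with the other TCF proteins.

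The targeted gene was measured by 3 probe sets. The brightest gave 12.30 and 11.92 in siNT replicates 1 and 2 and 11.24 and 11.56 in siLEF1 replicates 1 and 2, a log2 fold change of -0.71 (SE 0.20, adjusted p = 0.191 from limma). The others had log2 fold changes of -0.93 (SE 0.21, adjusted p = 0.141 from limma) and -0.19 (SE 0.18, adjusted p = 0.673 from limma). The groups did not overlap in the first 2 of these probe sets, but no LEF1 probe set passed the threshold. All 3 were lower in siLEF1 replicate 1 than in replicate 2. Array medians lay between 4.84 and 4.85 and upper quartiles between 7.24 and 7.38, and replicates correlated at r = 0.995 (siLEF1) and 0.990 (siNT) across probe sets. The signal of the 5' probe set minus that of the 3' probe set, a measure of RNA quality, was -1.08 and -1.55 for ACTB in siLEF1 and -1.80 and -1.95 in siNT. For GAPDH it was -0.34 and -0.32 in siLEF1 and -0.39 and -0.65 in siNT. The 5' signal was thus relatively weaker in siNT for both genes, and the part of this in the results was not tested.

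Promoter sequences were read from RefSeq (GRCh38.p14) in windows of 300 bases, 250 before and 50 after each gene's start, to see what the genes share that did not choose them. Of the 23 genes, 19 had an entry, and SCG2, RELB, ETV5 and GDAP1 had none. The TCF/LEF word CTTTGAA, or its variant CTTTGAT, or CTTTGTT, or also CTTTGTA, searched on both strands, was in 2 of the 19 (10.5%), against 13.9% of all 27305 promoters in the table and 7.48% of the 4869 promoters of genes with bright and stable siNT signal. Both hits were CTTTGTT on the strand of the gene, in PLPP6 at 210 bases and in SNHG32 at 135 bases before the start. These promoters are shown because they are the only 2 of the 19 with the letters that LEF1 recognises, from 250 bases before the start up to it and with the match in capitals, PLPP6 at chr9:4662044-4662293 (+) and SNHG32 at chr6:31834666-31834915 (+).
PLPP6: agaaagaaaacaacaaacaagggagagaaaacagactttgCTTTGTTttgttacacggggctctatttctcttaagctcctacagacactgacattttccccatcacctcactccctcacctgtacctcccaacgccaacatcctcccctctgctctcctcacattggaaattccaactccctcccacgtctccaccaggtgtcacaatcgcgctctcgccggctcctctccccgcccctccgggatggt
SNHG32: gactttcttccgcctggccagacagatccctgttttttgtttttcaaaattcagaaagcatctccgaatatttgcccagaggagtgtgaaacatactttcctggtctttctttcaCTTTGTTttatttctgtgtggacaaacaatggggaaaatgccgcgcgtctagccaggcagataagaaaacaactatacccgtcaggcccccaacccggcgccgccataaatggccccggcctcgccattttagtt
A match describes the letters and does not show a bound site, and distal elements were not searched. The strict word CTTTGAA was in 0 of the 19 windows, against 4.53% of all promoters and 2.36% of the bright and stable set.

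Other promoter words were also searched on both strands. CCAAT, the letters of the CCAAT box, was in 7 of the 19 (36.8%, against 35.7% of all promoters and 38.5% of the bright and stable set). GGGCGG, the letters of the GC box, was in 8 of the 19 (42.1%), close to the 44.6% of all promoters and below the 72.5% of the bright and stable set. The E-box CACGTG was in KDM4C and LAMTOR5-AS1 (10.5%, against 7.43% of all promoters and 11.1% of the bright and stable set). TATAAA, the letters of the TATA box, was in HLF alone (5.26%, against 12% and 4.31%), as was TGACGTCA, the letters that CREB proteins bind (5.26%, against 1.98% and 3.61%). The AP-1 letters TGACTCA were in KDM4C alone (5.26%, against 4.92% and 2.30%).
The windows had a median GC content of 62.7%, from 44.0% to 79.7%, against 65.3% in the bright and stable set. The ratio of observed to chance CpG counts, low where a promoter lacks a CpG island, was under 0.3 in LINC00623, PTPN22 and RNF32. That is 3 of 19 promoters (15.8%), against 176 of 4869 (3.61%) in the bright and stable set. These shares describe small counts and were not tested.

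The signals of the 23 genes in each array are shown in the plot of all entries. Separate groups and close siNT replicates were fixed by the choice in all 23, and remarks on them below only describe the values. Their siNT signals ranged from 7.10 to 12.25 and their siLEF1 signals from 3.97 to 10.94. In siLEF1, 13 of the genes were under 7 on both arrays and 10 were still at 7 or more on both. Only HLF came to lie under the array median on both siLEF1 arrays. The median log2 fold change of the 23 was -1.38, from -3.27 to -1.14, beside 0.04 over all 54613 probe sets tested. Of the 23 entries, 10 passed a limma test across all probe sets (more than 2-fold, with an adjusted p below 0.05), which called 0.183% of all probe sets lower and 0.0238% higher. Because the same contrast chose the genes, nothing is read from that count.

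**Figure D1:**
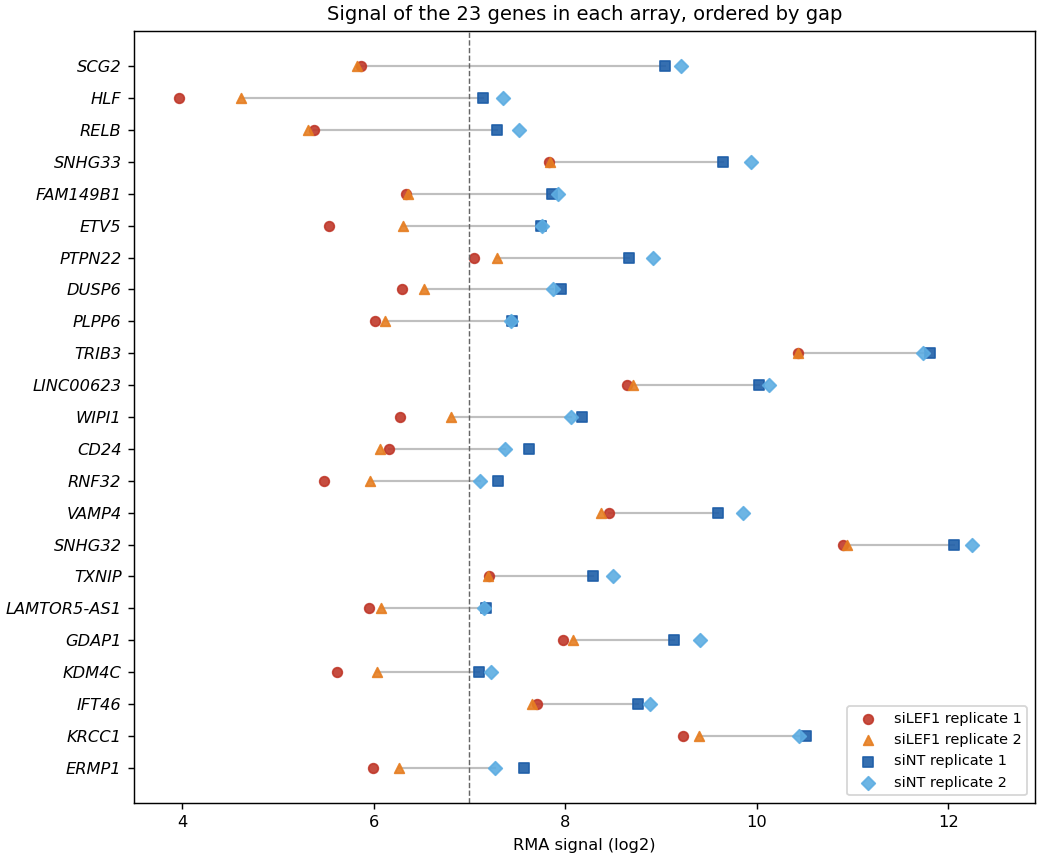
RMA signal (log2, horizontal axis) of the entry probe set of the 23 genes (vertical axis, ordered by gap) in siLEF1 replicate 1 (red circles), siLEF1 replicate 2 (orange triangles), siNT replicate 1 (dark blue squares) and siNT replicate 2 (light blue diamonds). Grey lines join the higher siLEF1 to the lower siNT value, from 3.17 for SCG2 to 1.01 for ERMP1, and the dashed line marks the brightness limit of 7 that both siNT values had to reach.

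Among genes of secretion and the cell surface, SCG2 had the widest gap. SCG2 gave 9.04 and 9.21 in siNT replicates 1 and 2 and 5.87 and 5.83 in siLEF1 replicates 1 and 2, a log2 fold change of -3.27, or 9.67-fold lower. The siLEF1 arrays lay close together and far below both siNT arrays. Secretogranin II is stored in the dense-core vesicles of neuroendocrine cells and is cut into secreted peptides. Of 9 measured genes for granins and prohormone processing, 2 passed the test lower and 0 higher, and the median log2 fold change was -0.12. Limma called 0.263% of all genes lower and 0.0657% higher by their brightest probe set. SCG2 is among these 2 and was chosen by the same values, so nothing is read from its call. The other gene that passed was CHGB, the granin chromogranin B, with 7.01 and 6.98 in siNT and 4.78 and 4.93 in siLEF1, a log2 fold change of -2.14. Its groups were also far apart, and it is not among the 23 only because siNT replicate 2 was under 7.
CD24, a small lipid-anchored glycoprotein of the cell surface, gave 7.62 and 7.37 in siNT and 6.16 and 6.07 in siLEF1, a log2 fold change of -1.38. Its siNT replicate 1 was the higher one, and the groups did not overlap. Its entry is of the _x_at kind, whose probes can also match related sequences.
VAMP4, a SNARE protein of membrane fusion at the trans-Golgi network, gave 9.60 and 9.86 in siNT and 8.46 and 8.37 in siLEF1, a log2 fold change of -1.31. Both siLEF1 values were more than 1 below the siNT values.

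Of the genes that act on transcription, HLF, RELB and ETV5 encode factors that bind DNA. HLF, a bZIP factor of the PAR family known from a gene fusion in acute lymphoblastic leukemia, gave 7.14 and 7.35 in siNT and 3.97 and 4.61 in siLEF1, a log2 fold change of -2.96, or 7.76-fold lower. The siLEF1 arrays differed from each other by 0.64, replicate 1 being the lower. RELB, the NF-kappaB subunit of the non-canonical pathway, gave 7.29 and 7.52 in siNT and 5.38 and 5.31 in siLEF1, a log2 fold change of -2.06. Its replicates were close in both groups. ETV5, an ETS factor of the PEA3 group, gave 7.75 and 7.76 in siNT but 5.53 and 6.31 in siLEF1, a log2 fold change of -1.83. The siNT arrays were nearly equal, while the siLEF1 difference of 0.78 was the widest among the 23 genes.
KDM4C, a demethylase of histone H3 lysine 9, gave 7.10 and 7.22 in siNT and 5.62 and 6.04 in siLEF1, a log2 fold change of -1.33. Here too siLEF1 replicate 1 was the lower array. Among 18 measured transcription factors of T-cell leukemia, none of them in the 23, 1 passed lower and 0 higher, with a median of 0.00. Limma called 0.263% of all genes lower and 0.0657% higher by their brightest probe set. The gene that passed was ZEB2 (log2 fold change -2.92, under 7 on both siNT arrays). At an unadjusted p under 0.05, 4 of the 18 were lower and 4 higher, where 8.79% of all probe sets were lower and 6.85% higher.

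Of the signaling genes, DUSP6 and PTPN22 encode phosphatases that restrain signaling. DUSP6 removes phosphate from ERK and is itself induced by ERK signaling. It gave 7.96 and 7.87 in siNT and 6.30 and 6.53 in siLEF1, a log2 fold change of -1.50, or 2.83-fold lower. PTPN22, a tyrosine phosphatase of lymphocytes that dampens T-cell receptor signaling, gave 8.67 and 8.92 in siNT and 7.05 and 7.29 in siLEF1, a log2 fold change of -1.63. In both genes the siLEF1 replicates differed by 0.23.
DUSP6 and ETV5 belong to a list of ERK feedback and immediate early genes. Of its 25 measured genes, 1 passed lower (DUSP6) and 0 higher, where limma called 0.263% of all genes lower and 0.0657% higher. At an unadjusted p under 0.05, 11 were lower and 0 higher (8.79% and 6.85% of all probe sets). In the list 22 genes lay below 0, and the median log2 fold change was -0.61. DUSP6 and ETV5, chosen by the same values, are counted among the 11 and the 22. Apart from DUSP6, no gene of the list passed. The list was less reproducible in the control arrays than the 23 genes were required to be, siNT replicate 2 exceeding replicate 1 by a median of 0.80. FOS, an immediate early gene, gave 5.24 and 8.30 in siNT and 5.04 and 4.91 in siLEF1, so that siNT replicate 2 alone stood out. DUSP6 and ETV5 did not show this pattern, as the choice by stable siNT values fixed.

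Genes of stress and metabolism were TRIB3, TXNIP, WIPI1, GDAP1, PLPP6 and ERMP1. TRIB3, a pseudokinase induced in the integrated stress response, gave 11.81 and 11.74 in siNT and 10.43 on both siLEF1 arrays, a log2 fold change of -1.35. Its replicates nearly coincided in each group. TXNIP, an inhibitor of thioredoxin and of glucose uptake, gave 8.29 and 8.50 in siNT and 7.20 and 7.19 in siLEF1, a log2 fold change of -1.20. The siLEF1 arrays again coincided, well below siNT. WIPI1, which binds the phosphoinositide that marks forming autophagosomes, gave 8.17 and 8.06 in siNT and 6.28 and 6.81 in siLEF1, a log2 fold change of -1.57. Its siLEF1 arrays lay 0.53 apart, replicate 1 lower.
GDAP1, a protein of the outer mitochondrial membrane, gave 9.14 and 9.41 in siNT and 7.98 and 8.08 in siLEF1, a log2 fold change of -1.25. Its siNT difference of 0.27 was near the limit of 0.3. PLPP6, a phosphatase of isoprenoid diphosphates, gave 7.44 and 7.43 in siNT and 6.01 and 6.12 in siLEF1, a log2 fold change of -1.37. It had the most even siNT arrays of the 23. ERMP1, a metallopeptidase of the endoplasmic reticulum, gave 7.57 and 7.27 in siNT and 5.99 and 6.26 in siLEF1, a log2 fold change of -1.29. Its gap of 1.01 and its siNT difference, which rounds to 0.30, put it at the edge of both limits.

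Of the remaining protein-coding genes, FAM149B1 and IFT46 are linked to cilia. FAM149B1 gave 7.86 and 7.92 in siNT and 6.34 and 6.36 in siLEF1, a log2 fold change of -1.54, with tight replicates in both groups. IFT46, a subunit of the intraflagellar transport complex, gave 8.76 and 8.89 in siNT and 7.71 and 7.65 in siLEF1, a log2 fold change of -1.14. After rounding, this and the value of LAMTOR5-AS1 were the smallest fold changes of the 23. RNF32, a RING finger protein, gave 7.30 and 7.11 in siNT and 5.48 and 5.96 in siLEF1, a log2 fold change of -1.49. KRCC1, a lysine-rich coiled-coil protein, gave 10.51 and 10.44 in siNT and 9.23 and 9.40 in siLEF1, a log2 fold change of -1.16. In both of these, siLEF1 replicate 1 was the lowest array and the siNT values lay above both siLEF1 values, as the choice fixed. The KRCC1 entry is, like that of CD24, of the _x_at kind.

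Long noncoding RNAs made up 4 of the 23 genes (17.4%), against 84 of the 5768 genes with bright and stable siNT signal (1.46%). SNHG33 gave 9.65 and 9.94 in siNT and 7.83 and 7.84 in siLEF1, a log2 fold change of -1.96, or 3.89-fold lower. SNHG32 gave 12.06 and 12.25 in siNT and 10.90 and 10.94 in siLEF1, a log2 fold change of -1.24. Both are host genes of small nucleolar RNAs by name, and in both the siLEF1 arrays lay closer together than the siNT arrays.
LINC00623 gave 10.02 and 10.13 in siNT and 8.64 and 8.71 in siLEF1, a log2 fold change of -1.40. LAMTOR5-AS1, which lies antisense to LAMTOR5 by its name, gave 7.17 and 7.15 in siNT and 5.95 and 6.08 in siLEF1, a log2 fold change of -1.14. In both of these the groups lay apart and the replicates were even. The LINC00623 entry is an _x_at probe set and related transcripts may share its signal. A probe set annotated to LINC00623 and LINC00869 had a log2 fold change of -1.19, and one annotated to these and 2 further noncoding RNAs, 4 genes in all, had one of -1.16.

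Where the limits fell is shown in the plot of gap against siNT difference. The 3 genes just inside the gap limit of 1 were IFT46 (1.05), KRCC1 (1.04) and ERMP1 (1.01). The 5 other genes just outside it were RGS16 (0.98), HOXC6 (0.98), RNPC3 (0.96), STYXL1 (0.95) and RWDD2A (0.94). RGS16, a regulator of G-protein signaling, gave 7.28 and 7.40 in siNT and 6.15 and 6.31 in siLEF1, with no overlap between the groups. Without the condition on the siNT difference, 140 bright probe sets of 118 genes had the gap. In 99 of the 110 that failed only that condition (90.0%), siNT replicate 2 was the higher, and their median siNT difference was 0.73. These counts leave out 15 bright probe sets of DHRS2 or histone genes with the gap, 2 of them of DHRS2, whose siNT differences were 0.31 to 1.82. In the opposite direction, 7 of the 7691 bright and stable probe sets (0.0910%) had a gap of at least 1, of the 7 genes ETS2, INSIG1, LSS, CHI3L2, FGFR3, SLC7A8 and ALDH1A2.

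**Figure D2:**
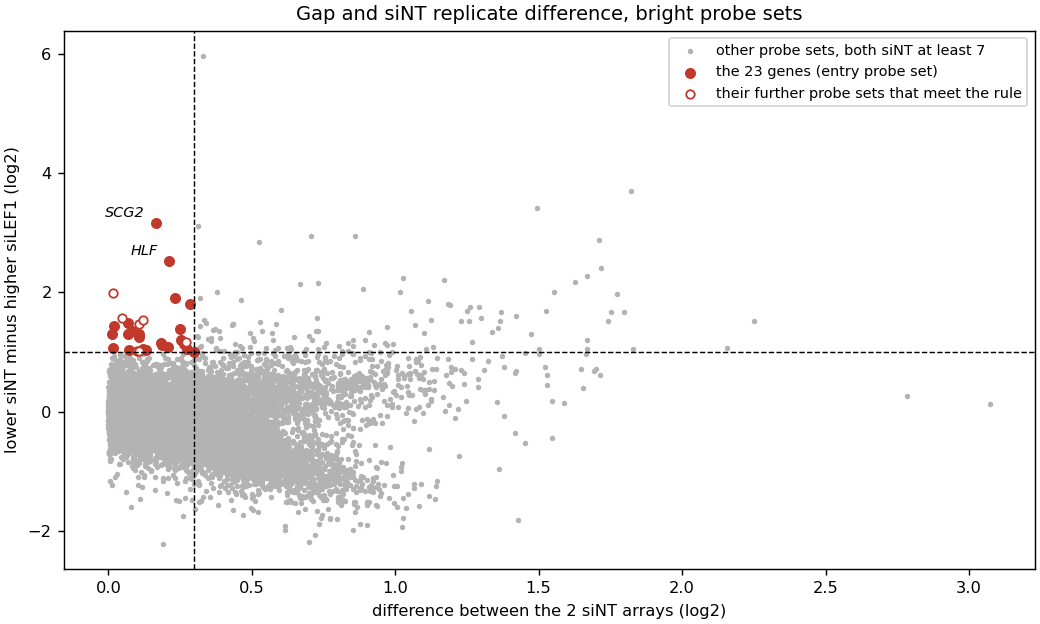
Lower siNT minus higher siLEF1 value (log2, vertical axis) against the difference between the siNT arrays (log2, horizontal axis) for 12843 probe sets with 1 symbol and both siNT values at least 7. Filled red circles are the entries of the 23 genes, open red circles their 7 further probe sets that met the conditions, grey points all others, and dashed lines mark the limits of 1 and 0.3. All grey points at or above the gap limit lie to the right of the stability limit.

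No limit was set on the difference between the siLEF1 arrays. The gap was taken from the higher of them, so their spread was not free of the choice. Their median difference over the 23 genes was 0.10, against 0.09 in the bright and stable set. It reached 0.3 in 5 genes, namely ETV5 (0.78), HLF (0.64), WIPI1 (0.53), RNF32 (0.48) and KDM4C (0.43), and replicate 1 was the lower in all 5. Over the 23 genes siLEF1 replicate 1 was below replicate 2 in 17 (73.9%), against 52.3% of the bright and stable probe sets. The LEF1 probe sets were also lower in replicate 1, as given above. Within siNT, replicate 1 was below replicate 2 in 60.9% of the 23 genes, against 42.5%. With 2 arrays per group these orders were not tested.

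Other probe sets of the same genes give a further reading of the same RNA on the same 4 arrays. A further probe set was present for 16 of the 23 genes, 36 in all, and 7 genes had only the entry. Of the 36, 7 met all conditions themselves and were thus chosen by their values as the entries were. Over all 36 the median log2 fold change was -1, from -2.02 to 0.52, and 28 were lower with no overlap between the groups, as were 21.2% of all probe sets. Of the 29 probe sets that did not meet the conditions, in 12 genes, 21 were lower without overlap and the median was -0.58. Where both siNT values were at least 6, 6 of 13 of these had a log2 fold change of -1 or lower and the median was -0.99. Of the 16 dimmer ones 5 did, 4 of them of CD24, and the median was -0.21. The same contrast is read here, so these values are a description.

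Several genes were read alike by all or most of their probe sets. The second SNHG33 probe set gave 9.15 and 9.14 in siNT and 7.11 and 7.16 in siLEF1, a log2 fold change of -2.02 beside -1.96 for the entry. The 5 further CD24 probe sets ranged from -2.01 to -1.12, all without overlap, and 4 of them did not meet the conditions. The second WIPI1 probe set gave -1.59, the second TRIB3 probe set -1.18, and the further DUSP6 probe sets -1.77 and -1.10. Those of SNHG33, WIPI1, TRIB3 and DUSP6 all met the conditions, so their direction was fixed by the choice. The entry of TXNIP was not its brightest probe set, which gave 10.89 and 11.35 in siNT and 9.82 and 9.78 in siLEF1, a log2 fold change of -1.32. It was lower to a like degree but its siNT difference of 0.47 was too wide.
Other genes were not read alike. The brightest KDM4C probe set gave 8.60 and 8.82 in siNT and 8.58 and 8.55 in siLEF1, a log2 fold change of -0.15 beside -1.33 for the entry. KDM4C thus differed little between the groups by its brightest reading, and another of its probe sets, dim on all arrays, gave 0.52. The further RNF32 probe sets, also dim, gave 0.11 and 0.18. For FAM149B1 the further values were -0.53, -0.42 and 0.02, and for ETV5 -0.94, -0.75, -0.36 and 0.14. In these 4 genes the direction of at least 1 probe set differed from that of the entry. All of the differing probe sets were dim, under 6 on every array. The other further probe sets of FAM149B1 and ETV5 were lower with no overlap between the groups. Some genes kept the direction of the entry, with weaker values among their further probe sets. For VAMP4 the further values were -1.02 and -0.58 beside -1.31 for the entry, and for ERMP1 -0.57 beside -1.29. Both siNT values were at least 6 in these. Those of HLF were -1.57 and -0.15, of PTPN22 -2.02, -1.42 and -0.10, and of GDAP1 -0.99 and -0.26. In HLF, PTPN22 and GDAP1 the smallest change came from a probe set under 6 on every array. Which transcripts the probe sets of a gene read was not examined.

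**Figure D3:**
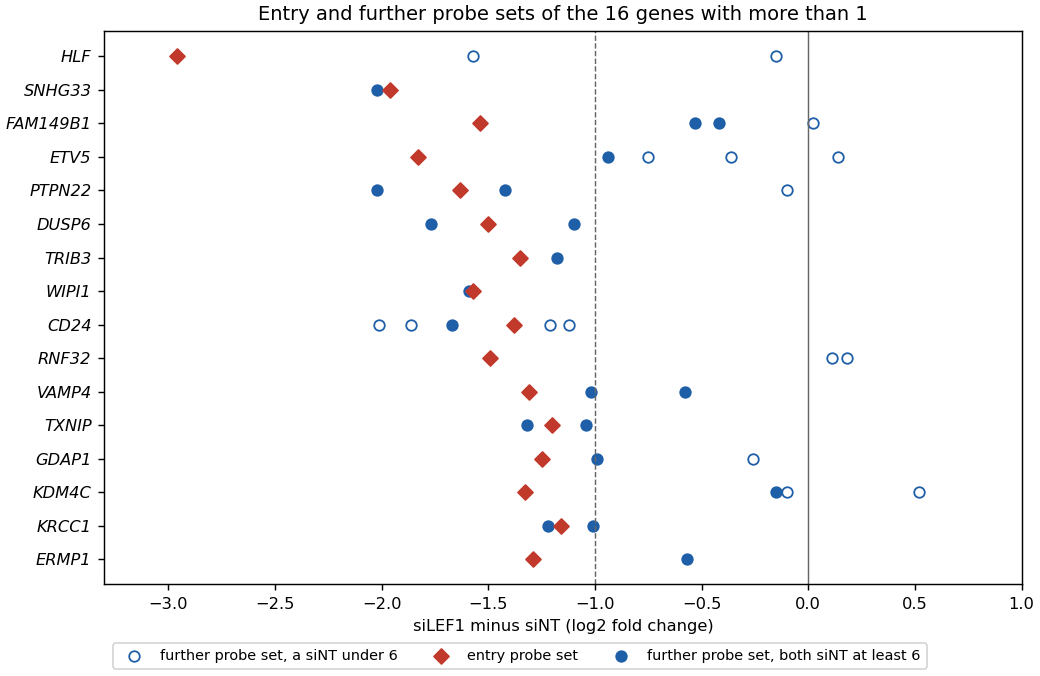
Log2 fold change (siLEF1 minus siNT, horizontal axis) of the entry (red diamonds) and of the 36 further probe sets of the 16 genes that have them (filled blue circles with both siNT values at least 6, open blue circles otherwise). The solid line marks 0 and the dashed line -1. Of the further probe sets, 18 lie at or left of the dashed line, and the 5 right of 0 belong to ETV5, FAM149B1, KDM4C and RNF32.

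By position, 5 of the 23 genes were on chromosome 1 (21.7%, against 10.3% of the genes with bright and stable siNT signal). On chromosome 3 there were 2 (8.7%, against 5.58%) and on chromosome 9 there were 3 (13%, against 4.20%). Shares were worked out for these chromosomes only and were not tested. The chromosome 9 genes PLPP6, ERMP1 and KDM4C lie on the short arm, with promoters 1.17 Mb (PLPP6 to ERMP1) and 2.10 Mb (PLPP6 to KDM4C) apart. Of 22 measured genes from PLPP6 to KDM4C, 19 were not among the 23, and 10 of these had both siNT values at least 7. Those 10 had a median log2 fold change of -0.22, from -0.68 for CDC37L1 to 0.63 for GLDC, and 6 lay below 0. JAK2, a cytokine receptor kinase, gave 7.27 and 7.18 in siNT and 6.51 and 6.78 in siLEF1. Its groups did not overlap but its gap was short of 1. CD274, which encodes the immune checkpoint ligand PD-L1, was dimmer, with 6.81 and 6.80 in siNT and 5.60 and 5.80 in siLEF1, a log2 fold change of -1.10. Its siNT arrays were even, its gap was 0.9989 before rounding, and its siNT values were under 7. Genes between the 3 thus ranged from lower to higher.

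**Figure D4:**
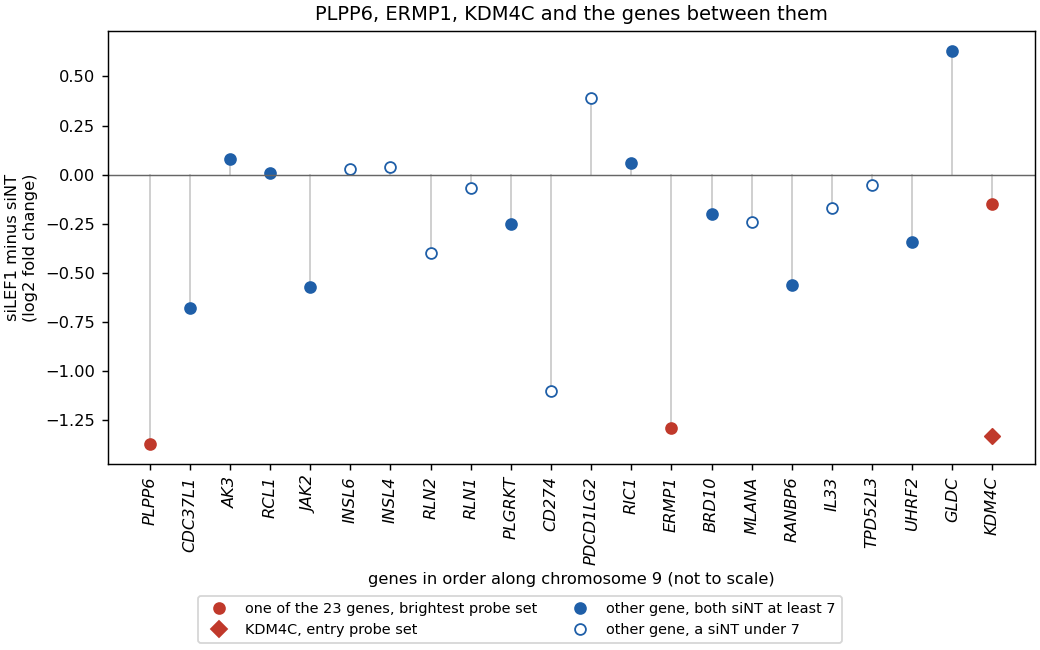
Log2 fold change (siLEF1 minus siNT, vertical axis) of the brightest probe set of 22 measured genes in their order along chromosome 9 from PLPP6 to KDM4C (horizontal axis, not to scale). Red circles are PLPP6, ERMP1 and KDM4C, the red diamond is the KDM4C entry at -1.33, and blue circles are other genes, filled where both siNT values were at least 7.

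Lists of genes beyond those above were counted by each gene's brightest probe set, for which limma called 0.263% of all genes lower. At an unadjusted p under 0.05, 8.79% of all probe sets were lower and 6.85% higher, and the counts at that p below are to be read beside these shares. The shares cover all probe sets, dim ones included. Counts at that p, here and above, use the brightest probe set per gene, so the sets are unlike. Of 19 Wnt and LEF1 targets, 0 passed in limma in either direction (2 lower and 2 higher at an unadjusted p under 0.05) and none was among the 23, with a median log2 fold change of 0.04. AXIN2, a direct Wnt target, gave 7.32 and 7.43 in siNT and 7.24 and 7.45 in siLEF1, overlapping values. Of 19 S phase genes 0 passed in limma (0 lower and 5 higher at an unadjusted p under 0.05, median 0.34), and of 20 genes of the G2 and M phases 0 passed in limma (0 lower and 4 higher, median 0.22). Of the S phase genes 19 lay above 0 and of the G2 and M genes 19. Their medians of siNT replicate 2 minus replicate 1 were -0.50 and -0.21. The mean signal of the S phase genes was 10.89 and 10.46 in siNT and 11.04 and 11.03 in siLEF1, so that siNT replicate 2 was the lowest array, and its part in these counts was not tested. Of 14 measured genes of T-cell identity, 0 passed in limma (1 lower and 6 higher at an unadjusted p under 0.05, median 0.32). Their mean signal was 9.78 and 9.34 in siNT and 9.81 and 9.87 in siLEF1. Both siNT values reached 7 in 13 of the 14, and CD2 was dim, with 5.13 and 4.75 in siNT and 5.31 and 5.52 in siLEF1. The arrays thus carried most of the measured T-cell markers. None of the 23 genes was in these lists.
Of the markers of other cell types none passed in limma, and both siNT values reached 7 in 0 B-cell, 0 myeloid, 2 erythroid, 1 epithelial and 1 stromal marker. The median log2 fold change was 0.10 for 5 B-cell markers, -0.15 for 6 myeloid markers, -0.49 for 4 erythroid markers, -0.12 for 6 epithelial markers and 0.12 for 6 stromal markers. At an unadjusted p under 0.05, 1 myeloid, 2 erythroid and 2 epithelial markers were lower, and 0 markers of the 5 lists were higher. The erythroid markers had a mean signal of 6.68 and 6.30 in siNT and 5.99 and 5.83 in siLEF1. Of the 4 markers, 3 lay below 0 and 1 above. KLF1 was the lowest, with a log2 fold change of -1.46 and siNT values of 5.93 and 4.89. EPOR, the brightest, had one of 0.13. The part of these markers in the result was not tested. The 14 housekeeping genes had a median of 0.15, and 0 passed in limma (1 lower and 2 higher at an unadjusted p under 0.05).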

How the data were processed

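RNA of Jurkat cells was measured on 4 arrays, 2 per group, and groups were taken from the sample labels. Signal extraction by the authors used Affymetrix Expression Console, version 1.1 according to the submitters' processing notes, with RMA normalization. The deposited values are log2 signals, 1 per probe set and array, for all 54675 probe sets. RMA equalizes the distributions of the arrays, so a shift of most genes in 1 direction would not be seen. Whether other arrays entered the same RMA run is not given in the sources used here. The values were used as deposited.

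Probe sets were named from the platform annotation, updated by Entrez number (41037 of 41091 with 1 symbol were matched), 1801 had several symbols and 11721 had none. Group differences were fitted for each probe set by lmFit and eBayes of limma 3.58.1 (R 4.3.3), with 2-sided p-values adjusted after Benjamini-Hochberg over 54613 probe sets (62 Affymetrix controls left out). Calls needed more than 2-fold and an adjusted p below 0.05. There were 2 residual degrees of freedom and 4.30 prior ones from eBayes. The rule and the fit were tested on simulated data. In gene lists and the chromosome 9 stretch, each gene was represented by its brightest probe set. The 23 genes and the gene lists were chosen with earlier results of these data known. Genes named by rule are the 23, LEF1 and the 5 genes nearest outside the gap limit. CHGB, ZEB2, AXIN2, FOS, JAK2, CD274, CDC37L1, GLDC, KLF1, EPOR and the genes higher in siLEF1 were named after their values were seen. Alternatives were other limits, a filter on dim probe sets, removal of probe sets ending in _x_at or _s_at, other centrings, eBayes with trend, a replicate block and each array left out.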

Additional observations from a re-analysis of the deposited data

How the results depend on the processing

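With 2 arrays per group, the number of genes depended on the limits, and calls depended on single arrays. Against 23 genes, a gap of 0.8 gave 66 and of 1.2 gave 13, a siNT difference under 0.5 gave 54, siNT values of at least 6 gave 46 and of at least 8 gave 12, and removing _x_at and _s_at probe sets gave 12. Without 1 array the number was 28 to 721, the latter without siNT replicate 1, 155 without siNT replicate 2 and 57 without siLEF1 replicate 2, and the stability condition lapses where 1 siNT array is left. Centring on housekeeping genes shifted the median of all probe sets to -0.22 and gave 86 genes, and the median of the 23 was then -1.64, with 23 of them and 1465 of all probe sets called lower.

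The main counts were 10 of the 23 and 100 of all probe sets called lower. Without 1 array, the lone array of a group being taken to vary like the others, these were 0 to 17 and 0 to 1287. They were 0 and 0 without siLEF1 replicate 1, siLEF1 replicate 2 or siNT replicate 2, in turn (3688, 4623 and 6232 probe sets at an unadjusted limma p under 0.05), and 17 and 1287 without siNT replicate 1. A filter at a mean signal of 6 left 1 and 4, and removing _x_at and _s_at probe sets, which leaves 10 of the 23 entries, gave 6. With the replicate block they were 23 and 977. Same-numbered arrays deviated with a correlation of -0.155, so the numbers do not show that arrays were paired. A crossed replicate block, chosen after seeing the data, gave 23 and 763. The cause of these differences was not tested.

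The median of the 23 was -1.44 to -1.35 without 1 array and -1.38 with the replicate block. That of the further probe sets was -1.10 to -0.85. Counting CTTTGAA alone left 0 promoters in place of 2. The remaining 15 alternative values, all with 4 arrays and no block, lay within the spread of the arrays or within 1.5 times the main count.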
